A study of Mus musculus with 6 samples.

Results

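The genes described here encode the machinery of oxidative phosphorylation: the subunits of respiratory complexes I to IV, cytochrome c and ATP synthase (complex V). They were chosen by name, as protein-coding genes whose symbols begin with the usual prefixes of these subunits (Ndufa, Ndufb, Ndufc, Ndufs, Ndufv, Uqcr, Cox4 to Cox8, Atp5) or are Sdha, Sdhb, Sdhc, Sdhd, Cyc1 or Cycs, together with the protein-coding genes of mitochondrial DNA. The rule found 108 of 45706 gene identifiers, 95 encoded in the nucleus and 13 in mitochondrial DNA. The prefixes also took in 9 genes that are no subunits, namely Ndufaf1 to Ndufaf8, which help to assemble complex I, and Atp5s, a coupling factor of ATP synthase. They are kept as a group of their own.

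RNA was measured by bulk RNA-seq in mouse bone marrow, in 2 libraries labelled control medium and 4 labelled medium conditioned by VpR cells. VpR cells are mouse clear cell renal cell carcinoma (ccRCC) cells from a model that resists checkpoint therapy. The 4 conditioned media came from the lines VpR83, VpR99, VpR126 and VpR2020, each line giving 1 library, so that they served as replicates and single lines could not be tested against each other. The comparison asks how gene expression in marrow cells differs after exposure to tumour cell medium. The labels used here give no strain, age, sex, culture time or number of animals, and they name no genetic change of the marrow. Nor do they say that libraries came from separate cultures or animals, so the p-values speak of the spread of these libraries, which may in part be technical. The controls are labelled as control medium, whereas the design text of the series describes them as fresh marrow. Their column headers name only bone marrow. Time in culture and the medium therefore cannot be told apart.

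In oxidative phosphorylation, electrons from NADH enter the chain at complex I and those from succinate at complex II. Complex III passes them through cytochrome c to complex IV, which reduces oxygen, and the proton gradient built on the way drives ATP synthase. Complexes I, III, IV and V are built from nuclear and mitochondrial gene products, complex II from nuclear gene products alone. Mitochondrial DNA is transcribed as long precursors that are cut into single RNAs. Mature neutrophils are known to hold few respiring mitochondria and to live mostly on glycolysis, whereas macrophages and dividing precursors respire.

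Promoters of several nuclear subunit genes carry binding motifs of NRF1 and of GABP (also called NRF-2), transcription factors long linked to respiratory genes. RefSeq windows (build GRCm38.p6, 250 bases before to 50 after the start) were at hand for 77 of the 95 nuclear genes and for 17492 protein-coding genes in all. The NRF1 palindrome (the half-site GCGCA followed by its reverse complement TGCGC) stood in 9.09% of the 77 windows and in 1.33% of all, the GABP core CCGGAAG in 22.1% and 11.9%, and the YY1 core AAGATGGC in 13% and 3.21%, each searched on both strands, and no match of one motif overlapped a match of another. The 120 bases before the start are shown for 5 genes, 5′ to 3′ on the strand of the gene, because they pair a match with both outcomes in conditioned medium described below. Capitals mark the motif. Ndufa11 (chr17:56717642-56717761, + strand) fell and Ndufaf4 (chr4:24897963-24898082, + strand) did not pass the test, and both hold the NRF1 palindrome, which begins 60 and 113 bases before the start. Uqcrh (chr4:116075071-116075190, - strand) fell and Sdhd (chr9:50603850-50603969, - strand) did not pass the test, and both hold the GABP core in reverse complement, beginning 10 and 46 bases before the start. Cox6b2 (chr7:4753095-4753214, - strand), the subunit gene with the largest fall, holds none of the 3 motifs.
Ndufa11: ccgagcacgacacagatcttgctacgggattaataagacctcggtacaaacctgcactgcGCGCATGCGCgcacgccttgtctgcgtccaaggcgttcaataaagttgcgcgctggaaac
Ndufaf4: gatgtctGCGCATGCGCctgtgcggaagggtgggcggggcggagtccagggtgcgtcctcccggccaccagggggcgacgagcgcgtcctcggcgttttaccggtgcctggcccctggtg
Uqcrh: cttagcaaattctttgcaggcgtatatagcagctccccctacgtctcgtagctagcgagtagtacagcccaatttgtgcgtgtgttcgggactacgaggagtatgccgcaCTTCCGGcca
Sdhd: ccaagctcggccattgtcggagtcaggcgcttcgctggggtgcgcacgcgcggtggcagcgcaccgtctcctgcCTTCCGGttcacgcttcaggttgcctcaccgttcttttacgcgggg
Cox6b2: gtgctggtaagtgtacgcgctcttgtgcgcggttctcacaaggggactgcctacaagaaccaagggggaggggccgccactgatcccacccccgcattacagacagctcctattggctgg
A match is a description of these letters and shows no binding. Among the matched genes, the NRF1 palindrome stood in 4 of 33 that fell and in 3 of 42 tested genes that were not called, and the GABP core in 8 of 33 and 9 of 42.

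Total counts were between 18629708 and 28055913 in 5 libraries and 129120559 in VpR99. Levels are given as CPM, read counts brought to a common library size and scaled by TMM, and between genes as CPM per kilobase of exon. Genes count as called, and are said to have risen or fallen, where the quasi-likelihood test of edgeR gave a Benjamini-Hochberg adjusted p under 0.05. It ran over 15141 genes, of which 22.5% were called higher and 19.7% lower in conditioned medium, with a median log2 fold change of -0.01. Levels of cell type markers differed between the groups. All 10 macrophage markers were higher in conditioned medium (summed level 594 to 647 CPM in the controls and 6176 to 22990 CPM in the conditioned libraries), 8 of 10 neutrophil markers were lower (81758 to 89502 against 3147 to 16945 CPM), and all 10 erythroid, 6 of 8 B cell and 6 of 6 T and NK cell markers were lower. In bulk RNA, fewer cells of a type and less RNA per cell cannot be told apart. The part of these shifts in the results below was not tested.

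The 38 called nuclear genes were all lower in conditioned medium and the 2 called mitochondrial genes were higher. Of 90 nuclear members that passed the filter on low counts, 38 (42.2%) fell in conditioned medium and 0 rose, beside 19.7% and 22.5% of all genes tested, and the median log2 fold change of the 90 was -0.45. Of the 13 mitochondrially encoded members, 2 (15.4%) rose and 0 fell, the share of rises lying below the 22.5% of all genes. The median of the 13 was 0.60, or 1.23 without control replicate 1 and 0.087 without control replicate 2. In 69 of the 90 nuclear members all 4 conditioned libraries lay below both controls, which held for 33.3% of all genes, and in 3 all 4 lay above both, beside 32% of all genes (65.3% in either direction). All 95 nuclear members together held 9666 and 9506 CPM in the controls and 7652, 8013, 6141 and 7538 CPM with VpR83, VpR99, VpR126 and VpR2020. At an unadjusted p below 0.05, 45 nuclear members were lower and 2 higher (Sdha and Cox7a1). Of the mitochondrial members 0 were lower and 3 higher (mt-Nd4l, mt-Nd5 and mt-Co1). The share of all genes at that unadjusted threshold was not counted. DESeq2 called 40 nuclear members lower and 1 higher (Cox7a1), and limma voom 36 and 0. Of all 15141 genes, 22.9% with DESeq2 and 21.4% with voom were called lower, and 3938 and 3142 genes were called higher.

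**Figure D1:**
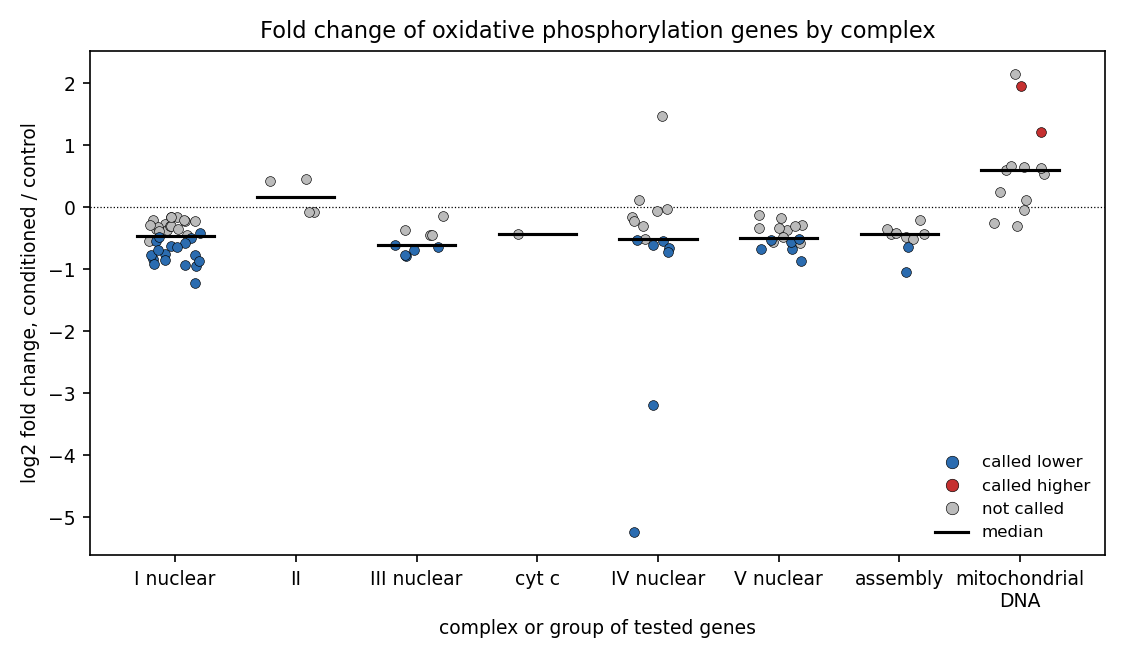
Each point is 1 tested gene, with its log2 fold change of conditioned over control medium on the vertical axis and its complex on the horizontal axis, blue where called lower, red where called higher and grey where not called. Bars mark medians. All 36 nuclear genes of complex I lie below 0, the 4 genes of complex II lie near or above it, and 10 of 13 genes of mitochondrial DNA lie above it.

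The count of 38 rests on both controls: it was 5 without control replicate 1 and 6 without control replicate 2, when 5.83% and 6.19% of all genes were still called lower and the remaining control was taken to vary like the conditioned libraries. It was 21 without VpR83, 25 without VpR2020 and 20 with no filter on low counts, when 15.5%, 15% and 9.59% of all genes were called lower. It was 60 with upper-quartile scaling and 58 with scaling by library totals, when 27.1% and 27.5% of all genes were called lower and their median shifted to -0.22 and -0.26. Relative to the median of all genes the nuclear members were at -0.43 with TMM, upper-quartile and total-count scaling. Scaling moves all genes together, so these values could hardly differ and do not test the choice of scaling. The same difference was -0.36 with no filter on low counts, -0.33 without VpR126 and -0.51 without VpR99. Cox7a2, Atp5f1, Atp5g1, Uqcrc2 and Cycs were not among the 38 and were called lower without VpR99. Ndufb7, Ndufb11, Cox6a2 and Cox6b2 were called lower under all 15 alternatives. Values of Atp5g2, Cox7c, Cycs, Ndufaf2, Ndufs5 and Uqcrb, which share 21.7% to 64.1% of their 50-base windows with other genes, and of Atp5o, Ndufa13 and Ndufb6, which share 27.1% to 31.6% with an overlapping gene, are uncertain to that extent. Smaller shares touch further members, among them Atp5h (19.9%), Ndufb4 (18.3%) and Ndufb9 (15.6%), which were called lower.

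Complex I, the NADH dehydrogenase, was measured through 36 nuclear genes, of which 18 (50%) fell and 0 rose, beside 19.7% and 22.5% of all genes. The median log2 fold change of the 36 was -0.46. Ndufb7, an accessory subunit on the side of the intermembrane space (chr8:83566671-83571626, GRCm38, + strand), stood at 128 and 124 CPM in the controls. It stood at 56.4, 58.4, 48.1 and 54.05 CPM with VpR83, VpR99, VpR126 and VpR2020. All conditioned libraries lay below both controls, with a mean of 54.2 ± 4.45 CPM (SD, n = 4) against 126 ± 3.20 CPM (SD, n = 2), a log2 fold change of -1.22 ± 0.13 (SE, adjusted p = 0.00131).

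The Ndufb genes encode accessory subunits of the membrane arm. Of the 10, 7 (70%, beside 19.7% of all genes) fell (Ndufb2, Ndufb3, Ndufb4, Ndufb7, Ndufb9, Ndufb10 and Ndufb11), with a median over the 10 of -0.77. Ndufb11 was at 127 and 117 CPM in the controls and at 68.3, 64.5, 53.2 and 67.4 CPM in the conditioned libraries in the same order, a log2 fold change of -0.94 ± 0.15 (adjusted p = 0.00401). Ndufb9 was at 98.6 and 89.7 CPM and at 50.2, 56.4, 42.7 and 50.1 CPM, with -0.92 ± 0.15 (adjusted p = 0.0045). Neither gene's groups overlapped, and VpR126 was the lowest library for both. Ndufb5, Ndufb6 and Ndufb8 were not called, at -0.37, -0.30 and -0.16, and the groups of Ndufb6 overlapped.

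Of the 7 nuclear core subunits of complex I, which carry the flavin and the iron-sulphur clusters, 3 (42.9%) fell, beside 19.7% of all genes. Ndufv1, the flavoprotein that takes electrons from NADH, stood at 115 and 110.5 CPM in the controls and at 63.2, 67.1, 49.9 and 55.2 CPM in the conditioned libraries, a log2 fold change of -0.94 ± 0.15 (adjusted p = 0.00488). Its partner Ndufv2 fell by 0.86 and Ndufs7, a subunit next to the ubiquinone site, fell by 0.64 on the log2 scale. Ndufs1, Ndufs3 and Ndufs8 were not called, with log2 fold changes of -0.29, -0.16 and -0.35. Of 13 Ndufa genes 6 (46.2%) fell, among them Ndufa3 (-0.75), Ndufa13 (-0.50), Ndufa1 (-0.55) and Ndufa2 (-0.42). Per kilobase, Ndufb11, Ndufa1 and Ndufa2 had the highest levels of the nuclear complex I genes, at 134, 127 and 124 CPM per kilobase in the controls and 69.8, 86.8 and 92.4 in conditioned medium. Ndufb7, which had the largest fall in complex I, was at 27.9 and 12.0 CPM per kilobase.

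Complex II, succinate dehydrogenase, belongs to the respiratory chain and to the tricarboxylic acid cycle, and 0 of its 4 genes were called in either direction by edgeR, DESeq2 or voom, 1 of them (Sdha) having an unadjusted p below 0.05. Sdha, the flavoprotein, stood at 227 and 229.8 CPM in the controls and at 329, 273, 274.5 and 378 CPM in the conditioned libraries. All 4 conditioned values lay above both controls, yet the log2 fold change of 0.46 ± 0.19 did not pass the test (adjusted p = 0.0904). Sdhc, a membrane anchor, was at 78.0 and 74.3 CPM and at 119, 107, 79.7 and 103 CPM, with 0.43 ± 0.19 (adjusted p = 0.106). It lay above both controls in all 4 libraries, though by little with VpR126, and without VpR126 it was called higher (0.54, adjusted p = 0.0209). Sdhb, the iron-sulphur subunit, and Sdhd, the other anchor, were at -0.08 each with overlapping groups. The median over the 4 genes was 0.17, and it turned to -0.03 with upper-quartile scaling and to -0.07 with scaling by library totals. No test between complexes was made, and 42.2% of all genes tested were called in either direction.

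Complex III, the cytochrome bc1 complex, had 9 nuclear genes tested, with a median of -0.61. Of these, 5 (55.6%) fell and 0 rose, beside 19.7% and 22.5% of all genes. Uqcrh, the hinge protein at the docking site of cytochrome c, stood at 201 and 187 CPM in the controls and at 105, 103, 112 and 131 CPM in the conditioned libraries. The groups did not overlap, and the log2 fold change was -0.78 ± 0.15 (adjusted p = 0.00785). Cyc1, which encodes cytochrome c1, fell from 120 and 124 CPM to 75.1, 96.5, 57.2 and 58.2 CPM, by 0.77 ± 0.23 on the log2 scale (adjusted p = 0.0378). VpR99 was the highest of the 4 conditioned libraries for Cyc1. The core protein gene Uqcrc1 (-0.65) and the small subunit genes Uqcr10 (-0.61) and Uqcr11 (-0.68) also fell. Uqcrc2 (-0.44, adjusted p = 0.0572) and Uqcrfs1, the Rieske iron-sulphur protein (-0.45, adjusted p = 0.0601), lay below both controls in all conditioned libraries and did not pass the test.

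Cytochrome c itself did not follow one direction over the media. Cycs was at 71.6 and 61.8 CPM in the controls and at 45.7, 81.9, 39.8 and 30.6 CPM with VpR83, VpR99, VpR126 and VpR2020. VpR99 lay above both controls and the other 3 below them, and the log2 fold change of -0.43 ± 0.38 did not pass the test (adjusted p = 0.388). Without VpR99 it was called lower (-0.78, adjusted p = 0.0272).

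Complex IV, cytochrome c oxidase, had 15 of 20 nuclear genes tested. Of the 15, 7 (46.7%) fell and 0 rose, beside 19.7% and 22.5% of all genes. Among the subunits present in most tissues, Ndufa4, first assigned to complex I and now placed in complex IV, fell by 0.72, Cox6a1 by 0.66, Cox7c by 0.61, Cox5b by 0.54 and Cox6c by 0.53 on the log2 scale. Other subunits of the same enzyme stayed without a call: Cox4i1 was at 288.5 and 285 CPM in the controls and at 245, 235, 238 and 310.5 CPM in the conditioned libraries (-0.16 ± 0.17, adjusted p = 0.471). VpR2020 lay above both controls for Cox4i1 and the other 3 libraries below. Cox5a, the partner of Cox5b, was at -0.03, Cox7b at -0.07, Cox8a at -0.22, Cox6b1 at -0.30 and Cox7a2 at -0.52 (adjusted p = 0.0952). Cox8a, Cox6b1 and Cox6a1 had the highest levels per kilobase of the nuclear complex IV genes in the controls, at 269, 238.5 and 253 CPM per kilobase.

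The largest falls were in minor isoforms of complex IV. Cox6b2, an isoform known from testis (chr7:4751792-4753094, - strand), had 772 and 524 counts in the controls and 14, 71, 28 and 7 counts in the conditioned libraries. Its level was 25.7 and 24.6 CPM in the controls and 0.513, 0.576, 1.18 and 0.387 CPM in the conditioned libraries, a log2 fold change of -5.24 ± 0.42 (adjusted p = 0.000674). Cox6a2, the isoform of heart and skeletal muscle (chr7:128205435-128206387, - strand), fell from 10.8 and 9.54 CPM to 1.17, 0.835, 0.972 and 1.55 CPM, by 3.18 ± 0.32 on the log2 scale (adjusted p = 0.00116). Control and conditioned libraries lay far apart for both genes, and the common isoforms Cox6b1 and Cox6a1 were at -0.30 and -0.66. Cox6a2 overlaps the gene Itgad, with which 3.33% of its 50-base windows are shared. Itgad had 426 and 239 counts in the controls and 11, 78, 36 and 8 in the conditioned libraries. Cox6a2 had 324 and 203 counts in the controls, and the part of Itgad reads in its fall was not tested.

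Per kilobase, Cox6b2 made up 8.77% and 8.63% of the sum of Cox6b1 and Cox6b2 in the controls and 0.220%, 0.249%, 0.635% and 0.183% in the conditioned libraries. Cox6a2 made up 6.07% and 5.10% of the sum of Cox6a1 and Cox6a2 in the controls and 0.647% to 1.49% in the conditioned libraries. Skeletal muscle markers were low in all libraries, with 12 markers summing to 14.4 and 16.9 CPM in the controls and to 8.76 to 16.2 CPM in the conditioned libraries. Of them 6 were tested and 3 fell (Mylpf, Atp2a1 and Actn3), with a median log2 fold change over the 6 of -1.87. Tnni2, not called, went the other way, at 3.23 and 3.34 CPM in the controls and 13.3, 5.7, 3.76 and 12.7 CPM in the conditioned libraries. It made up most of the sum with VpR83 and VpR2020. Myh4 and Mb had no counts in any library, and Ckm was below 0.1 CPM in every library. Neutrophil, erythroid, B cell and T cell markers and the 3 muscle markers fell together with both isoforms, and their part in the result was not tested.

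**Figure D2:**
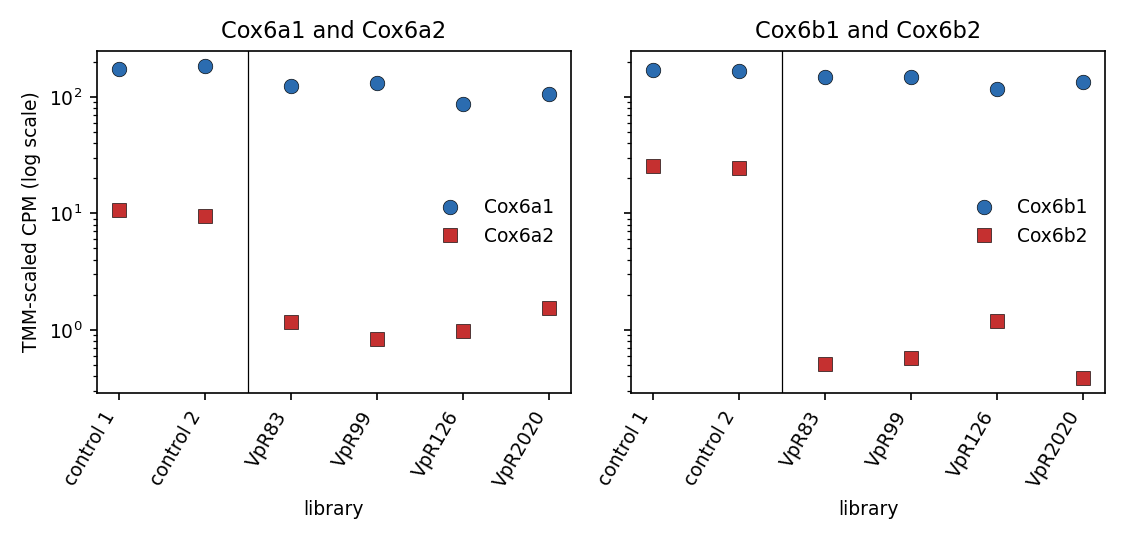
TMM-scaled CPM on a log axis in each of the 6 libraries for the common isoforms (blue circles) and the minor isoforms (red squares) of Cox6a, left, and Cox6b, right; the vertical line separates controls from conditioned libraries. Cox6b2 stands at 25.7 and 24.6 CPM in the controls and at most 1.18 CPM in conditioned medium, while Cox6b1 stays above 100 CPM in all libraries.

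The muscle isoform Cox7a1 lay on the other side. It was at 0.633 and 0.517 CPM in the controls and at 2.53, 1.49, 0.718 and 1.72 CPM in the conditioned libraries, all above both controls, with a log2 fold change of 1.48 ± 0.57 that did not pass the test (adjusted p = 0.0763). It was called higher by DESeq2 and without VpR126. Its share per kilobase of the sum with Cox7a2 was 0.909% and 0.847% in the controls and 2.09% to 5.0% in the conditioned libraries. Cox7a2l, a factor that joins complexes III and IV, was at 0.11 with overlapping groups, and with upper-quartile scaling, scaling by library totals or without VpR2020 its sign turned. The members that did not pass the filter on low counts were Cox4i2 (7 and 7 counts in the controls, 10, 67, 0 and 5 in the conditioned libraries), Ndufa4l2, an inhibitory paralogue of Ndufa4 known from hypoxia (0 and 0, then 3, 16, 0 and 0), Cox8b (2 counts, both with VpR99), and Cox7b2 and Cox8c (0 counts in all libraries).

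Complex V, the ATP synthase, had 16 nuclear genes tested, with a median of -0.50. Of the 16, 6 (37.5%) fell and 0 rose, beside 19.7% and 22.5% of all genes. Of the 11 genes of the membrane part and the peripheral stalk 5 (45.5%) fell. Of the 5 genes of the F1 part, its catalytic head and central stalk, 1 (20%) fell, a share near the 19.7% of all genes. It was Atp5e, the small epsilon subunit of the central stalk (-0.67). Atp5h, subunit d of the peripheral stalk, stood at 211.5 and 215.5 CPM in the controls and at 115, 122, 102 and 128 CPM in the conditioned libraries. The groups lay apart, with a log2 fold change of -0.87 ± 0.14 (adjusted p = 0.00445). Atp5k (-0.67), Atp5l (-0.56), Atp5j2 (-0.53) and Atp5o (-0.51), also of the membrane part and peripheral stalk, fell as well.

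The alpha and beta subunits of the F1 head had the highest levels per kilobase of the complex V genes in the controls, at 255 and 216 CPM per kilobase, and were not called. Atp5b, the beta subunit, was at 913.5 and 917 CPM in the controls and at 802, 905, 513 and 605 CPM in the conditioned libraries (-0.37 ± 0.26, adjusted p = 0.271). Atp5a1, the alpha subunit, was at 784 and 817 CPM and at 798, 782, 549.5 and 699 CPM (-0.18 ± 0.20, adjusted p = 0.493). VpR126 was the lowest library for both, and VpR99 lay just below the lower control. The 3 genes for the c subunit of the rotor ring, Atp5g1, Atp5g2 and Atp5g3, had log2 fold changes of -0.57, -0.12 and -0.34 without a call. Atp5g3 held 57.6% to 63.3% of their summed level per kilobase over all libraries.

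Of the 9 assembly and coupling factors, 2 (22.2%) fell and 0 rose, a share of falls near the 19.7% of all genes, with a median of -0.44. Ndufaf7, a methyltransferase needed for the assembly of complex I, was at 25.0 and 26.9 CPM in the controls and at 15.5, 15.9, 7.94 and 11.1 CPM in the conditioned libraries, a log2 fold change of -1.04 ± 0.29 (adjusted p = 0.0288). Ndufaf3 fell by 0.63 on the log2 scale (adjusted p = 0.0416). Ndufaf1, Ndufaf2, Ndufaf4, Ndufaf5, Ndufaf6, Ndufaf8 and Atp5s were between -0.52 and -0.20 and were not called.

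The lowest place among the media was largely shared over the nuclear genes, the highest less so. VpR126 was the lowest of the 4 conditioned libraries for 74 of the 90 tested nuclear members, VpR99 for 11, VpR2020 for 3 and VpR83 for 2. VpR99 was the highest for 52, VpR2020 for 23, VpR83 for 13 and VpR126 for 2. The same places were not counted over all genes tested, so whether this order is particular to these members is not known. The median log2 ratio of the nuclear members to the mean of the controls was -0.38 with VpR83, -0.30 with VpR99, -0.77 with VpR126 and -0.44 with VpR2020, while that of all genes tested was between -0.07 and -0.02. Members of a library share its scaling and its cells, so these counts describe 1 library each.

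**Figure D3:**
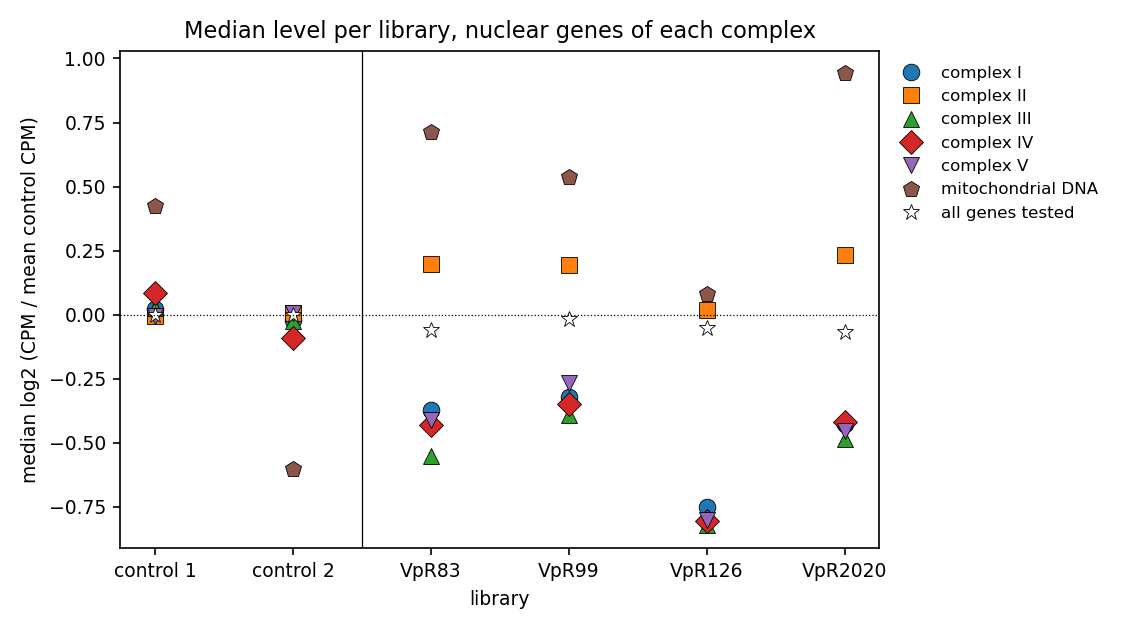
Median log2 ratio of each library's CPM to the mean control CPM, on the vertical axis, for the nuclear genes of each complex, the genes of mitochondrial DNA and all genes tested, with the 6 libraries on the horizontal axis and the controls left of the vertical line. The nuclear genes of complexes I, III, IV and V lie below those of complex II in each conditioned library and are lowest with VpR126, and the genes of mitochondrial DNA differ between the controls, at 0.43 and -0.61.

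The mitochondrially encoded genes stood at other levels and spread more. Their median level per kilobase was 302 CPM in the controls and 656 CPM in conditioned medium, that of the tested nuclear members 46.2 and 32.9 CPM. mt-Nd5, a proton-pumping subunit of complex I (chrM:11742-13565, + strand), stood at 787 and 314 CPM in the controls and at 2189, 2045, 1605 and 2710 CPM with VpR83, VpR99, VpR126 and VpR2020. All conditioned libraries lay above both controls, a log2 fold change of 1.96 ± 0.44 (adjusted p = 0.0137). mt-Co1, the catalytic subunit of complex IV (chrM:5328-6872, + strand), stood at 5835 and 2782 CPM in the controls and at 9412, 10118, 7721 and 12609 CPM in the conditioned libraries. It rose by 1.21 ± 0.39 on the log2 scale (adjusted p = 0.0438), again without overlap.

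The controls differed for these genes. Control replicate 1 exceeded replicate 2 by a median of 1.03 on the log2 scale over the 13 mitochondrial genes (0.52 to 2.56), beside 0.03 over the 90 nuclear members and 0.00 over all genes tested. Without control replicate 2 neither gene was called (mt-Nd5 1.46, adjusted p = 0.065; mt-Co1 0.79, adjusted p = 0.239), and without control replicate 1 their log2 fold changes were 2.77 and 1.84, so that the size depends on which control is kept. mt-Co1 also lost its call without control replicate 1, VpR83, VpR99 or VpR2020 and with upper-quartile scaling or library totals (adjusted p = 0.0529 to 0.0809).

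The other mitochondrial genes were not called. mt-Nd1 was at 1959 and 1037 CPM in the controls and at 2107, 1915, 1069 and 2005 CPM in the conditioned libraries (0.24 ± 0.37, adjusted p = 0.618), and mt-Cytb, the cytochrome b of complex III, at 2184 and 1069 CPM and at 2665, 2524, 1720 and 3157 CPM (0.63 ± 0.37, adjusted p = 0.209). The groups overlapped for both. mt-Nd2, mt-Nd4 and mt-Nd6, subunits of complex I, had log2 fold changes of 0.54, 0.64 and 0.61 with overlapping groups, mt-Nd6 being the one protein gene read from the other strand. mt-Nd4l was above both controls in all conditioned libraries (0.833 and 0.141 CPM, then 2.60, 1.29, 1.56 and 3.596 CPM), at 2.15 ± 0.79 (adjusted p = 0.0677), and DESeq2 called it higher. It had only 25 and 3 counts in the controls and 71, 159, 37 and 65 in the conditioned libraries. Its log2 fold change was 3.96 without control replicate 1 and 1.44 without control replicate 2 (adjusted p = 0.243). mt-Atp8, mt-Atp6, mt-Co2, mt-Co3 and mt-Nd3 were at 0.67, 0.11, -0.04, -0.26 and -0.30, with overlapping groups. Their signs turned in some alternatives.

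**Figure D4:**
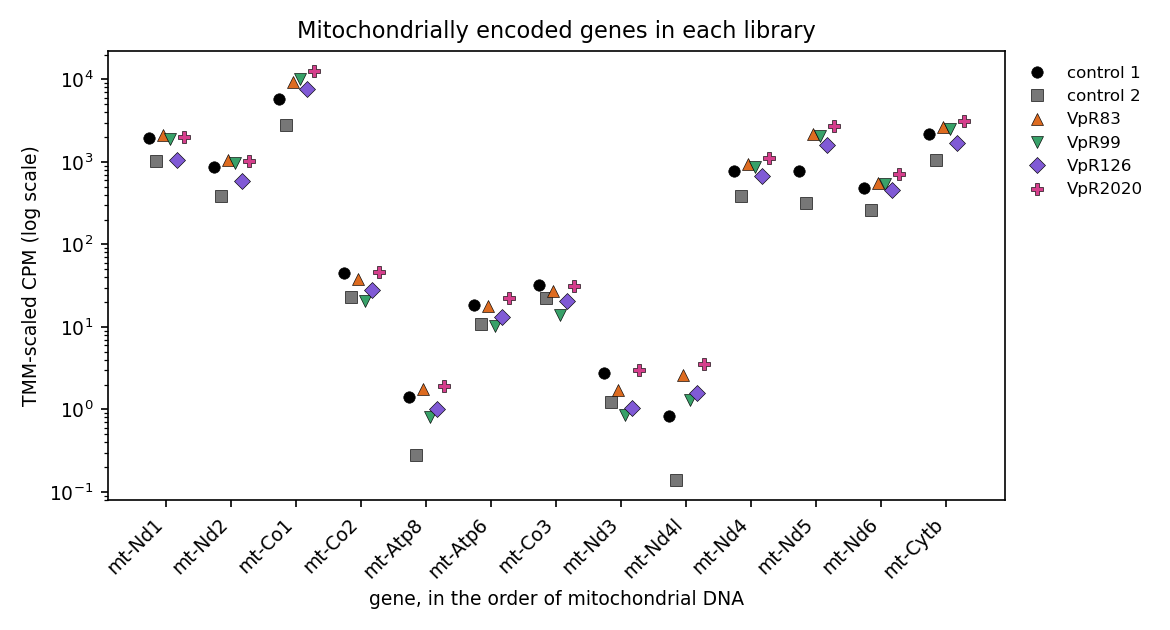
TMM-scaled CPM on a log axis for the 13 protein genes of mitochondrial DNA, in their order along it, with 1 marker per library (black and grey for controls, colours for conditioned libraries). mt-Co1 is highest in every library, and mt-Co2 to mt-Nd4l lie at or below 46.9 CPM. Only 3 of the 13 (mt-Nd4l, mt-Nd5 and mt-Co1) have all 4 conditioned libraries above both controls, beside 32% of all genes tested.

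A stretch of neighbouring genes had low counts in every library. mt-Co2 was at 20.4 to 46.9 CPM and mt-Co3 at 14.0 to 32.6 CPM, while mt-Co1 beside them was at 2782 CPM or more. Of all 50-base windows of the annotated transcripts, 100% of mt-Co2, 99.9% of mt-Co3, 99.5% of mt-Atp6, 98.8% of mt-Nd4l and 98% of mt-Nd3 also occur in another annotated gene, among them copies of mitochondrial DNA on chromosome 1 such as Gm28661. The share was 62.2% for mt-Nd4, 51.1% for mt-Co1, 8.19% for mt-Nd2, 7.61% for mt-Nd5 and 0% for mt-Nd1, mt-Nd6, mt-Cytb and mt-Atp8. Gm28661 held 2088 and 696 counts in the controls and 1551, 4789, 1015 and 1283 in the conditioned libraries, more than the 1372, 487, 1047, 2514, 666 and 848 counts of mt-Co2. How reads that match both places were counted is not stated in the labels, so levels of genes with a high share are uncertain. With the counts of the copies added, mt-Nd5 stayed at 1.96 (adjusted p = 0.0137) and mt-Co1 at 1.20 (adjusted p = 0.0445). Their copies held few counts beside their own (control replicate 1: Gm29216 1807, mt-Co1 175088), so these values could hardly move. mt-Atp6, with 560 counts there beside 1269 of its copy Gm10925, moved from 0.11 to 0.49 without a call. Adding the copies cannot restore reads that may have been left uncounted. mt-Atp8, a short gene that overlaps mt-Atp6, has no shared window and was at 0.282 to 1.94 CPM.

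The 2 called mitochondrial genes can also be set against uncalled ones within each library. Such ratios restate the calls that picked mt-Nd5 and mt-Co1 and are given as a description. The ratio of mt-Nd5 to mt-Nd1, which needs no scaling between libraries, was 0.402 and 0.303 in the controls and 1.04, 1.07, 1.501 and 1.35 with VpR83, VpR99, VpR126 and VpR2020. The ratio of mt-Nd5 to mt-Cytb, its neighbour beyond mt-Nd6, was 0.361 and 0.294 in the controls and 0.821, 0.810, 0.933 and 0.858 in the conditioned libraries. The ratio of mt-Co1 to mt-Nd1 was 2.98 and 2.68 in the controls and 4.47, 5.28, 7.22 and 6.29 in the conditioned libraries. All 4 conditioned libraries lay above both controls in these 3 ratios. An exact test of 2 against 4 libraries cannot pass the threshold, so no p is given for ratios.

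The ratio between the genomes differed too. The 13 mitochondrial genes held 1.42% and 0.718% of all counts in the controls and 1.85%, 1.82%, 1.28% and 2.18% in the conditioned libraries, and the 95 nuclear genes held 1.06% and 1.09% and then 0.745%, 0.765%, 0.565% and 0.702%. The summed CPM of mitochondrial genes was 1.34 and 0.662 times that of nuclear genes in the controls and 2.48, 2.38, 2.26 and 3.11 times in the conditioned libraries. The ratio was above both controls in all conditioned libraries, while the mitochondrial share alone overlapped, VpR126 lying below control replicate 1. The called gene mt-Co1 alone made up 44.9% and 44.2% of the mitochondrial sum in the controls and 49.5%, 53.15%, 55.55% and 53.8% in the conditioned libraries. As mt-Nd5 is in the sum too, the ratio in part restates these calls and the falls of nuclear genes. The mitochondrial ribosomal RNAs, which share the same precursors, were at 1160 and 923 CPM in the controls and at 752, 771, 922 and 1308 CPM in the conditioned libraries, with overlapping groups.

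**Figure D5:**
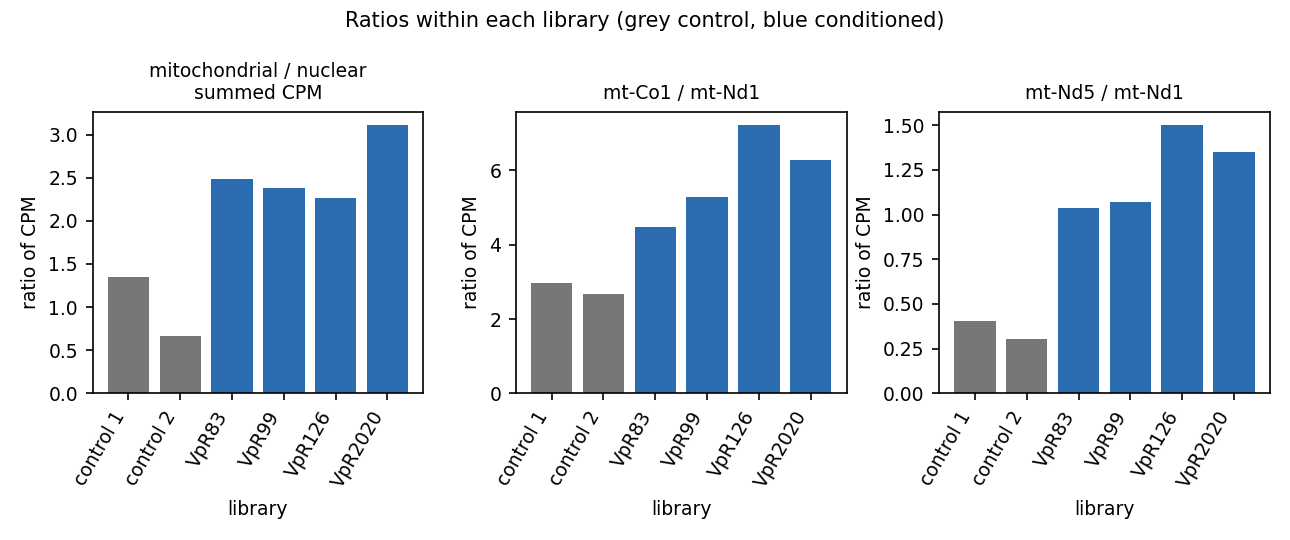
Ratios of CPM within each library, with bars starting at 0, grey for controls and blue for conditioned libraries: summed mitochondrial over summed nuclear genes (left), mt-Co1 over mt-Nd1 (middle) and mt-Nd5 over mt-Nd1 (right). In all 3 panels the 4 conditioned libraries stand above both controls, and for mt-Nd5 over mt-Nd1 the controls are at 0.402 and 0.303 and the lowest conditioned library at 1.04.

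Genes around the respiratory chain were described from lists of related processes, beside 19.7% of all genes tested that fell and 22.5% that rose. Of 77 mitochondrial ribosomal protein genes, which serve the translation of the 13 mitochondrial messages, 22 (28.6%) fell and 1 (1.3%) rose, with a median of -0.39. Mrpl33 fell by 1.43 and Mrps28 by 1.20 on the log2 scale, and Mrps2 rose by 0.58. Of 51 further assembly factors 8 (15.7%) fell and 5 (9.8%) rose, shares below those of all genes. Fmc1, an ATP synthase assembly factor, fell by 1.48 and Cmc2, linked to complex IV, by 1.24, whereas Tmem126b, of the complex I assembly machinery, rose by 1.19 and Coa5 by 1.23.

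Of 31 genes for the upkeep and transcription of mitochondrial DNA, 5 (16.1%) fell and 1 (3.23%) rose, again below the shares of all genes. Tfam, which packages mitochondrial DNA and starts its transcription, was at 41.8 and 43.4 CPM in the controls and at 27.6, 30.6, 25.4 and 28.1 CPM in the conditioned libraries, a log2 fold change of -0.61 ± 0.14 (adjusted p = 0.0141) with no overlap. Mterf2, of the mitochondrial transcription termination factor family, fell by 2.49 and Mterf1b by 1.17, and Fastkd3, of a family that acts on mitochondrial RNA, rose by 1.18. Among 16 regulators of mitochondrial biogenesis 3 fell and 3 rose (18.8% each), near the shares of all genes. Nrf1 (-0.67 ± 0.18, adjusted p = 0.024) and Gabpb1 (-0.70 ± 0.17, adjusted p = 0.0173) fell, and Gabpa, the DNA-binding partner of Gabpb1, rose (0.53 ± 0.17, adjusted p = 0.0436). Gabpa overlaps Atp5j, a member that was not called (-0.30). Mtor rose by 0.93. The coactivator genes Ppargc1a, at or below 0.611 CPM in all libraries, and Ppargc1b were at -1.68 and 0.54 without a call.

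Of 26 genes of the tricarboxylic acid cycle and pyruvate entry, 3 fell and 3 rose (11.5% each), a smaller share than over all genes in both directions. The pyruvate carrier subunit Mpc2 fell by 1.21 and Pdhb, a subunit of pyruvate dehydrogenase, by 0.91, while the phosphatases Pdp1 and Pdp2, which activate that enzyme, rose by 1.94 and 2.26. Of only 8 other enzymes that feed electrons to ubiquinone 4 (50%) fell and 0 rose, beside 19.7% and 22.5% of all genes. Chdh (-1.89) and Prodh (-1.35) were among those that fell. The ADP/ATP carrier Slc25a4 rose by 1.17, and Ucp2 was at -0.59 (adjusted p = 0.0507). Of 21 glycolysis genes 4 (19%) rose and 2 (9.52%) fell, below the shares of all genes, with a median of 0.63. Aldoc rose by 4.38 and Pfkl by 1.40, and Pfkm fell by 1.29 and the lactate carrier gene Slc16a1 by 2.01. Proliferation markers were lower with VpR126 and VpR2020 (Top2a 159 and 228 CPM, controls 625 and 595 CPM) than with VpR83 and VpR99 (462.5 and 596.5 CPM), and 0 of 6 were called by edgeR, 1 of them (Mcm5) having an unadjusted p below 0.05. Their part in the fall of the nuclear members was not tested.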

How the data were processed

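The authors deposited raw, unnormalized read counts for each Ensembl gene. Libraries came from total RNA with a stranded TruSeq kit, per the labels' protocols. The submitters' processing notes name Trimmomatic 0.38, STAR 2.5.2b and GRCm38. For the counting tool and its strand setting, nothing was given in the sources used here, so antisense partners cannot be separated. Symbols, coordinates and exon lengths came from GENCODE M21 (45143 identifiers matched). The 6 libraries were grouped by their labels. Counts were filtered with filterByExpr, scaled by TMM and tested by edgeR 4.0.16 (robust quasi-likelihood, two-sided) in R 4.3.3, with p-values adjusted by Benjamini-Hochberg over the whole table. The script was tested on simulated data in which few genes changed, so that test does not speak to the scaling of these libraries. The SE of a log2 fold change is its size over the square root of edgeR's F. Errors of CPM are SD. Alternatives used DESeq2 1.42.0, limma 3.58.1 voom, other scalings, no filter, thinning of the deepest library and leaving out each library. Named genes were all mitochondrial members, Sdh genes, Cyc1, Cycs, the 3 highest nuclear genes per kilobase in complexes I, III, IV and V, the 8 largest called rises and falls, isoform sets, assembly factors and filtered members, and in each list of related genes the 2 largest called rises and falls with Ppargc1a, Ppargc1b, Tfam, Nrf1, Ucp2 and Ndufa4l2. Other genes were named after their values were seen. Members and lists were chosen with earlier results of these data known. The column headers of VpR83, VpR99 and VpR126 carry tags that the labels do not explain.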

Additional observations from a re-analysis of the deposited data

Results flagged for a closer look

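In 3 of 85 genes examined, 1 conditioned library stood far from the other 3; chance gives such a gap in about 5% of groups of 4. Cox4i1 was at 310.5 CPM with VpR2020 and at 235 to 245 CPM with the other 3 media. mt-Nd2 was at 593 CPM with VpR126 and at 982 to 1045 CPM with the others. Gabpa was at 63.9 CPM with VpR126 and at 80.4 to 82.8 CPM with the others.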

How the results depend on the processing

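Of 1232 values recomputed under 15 alternatives for 83 named genes, 1066 kept direction and call, 120 lost and 26 gained a call, and 20 changed sign. Nuclear members called lower numbered 60 with upper-quartile scaling, 58 with library totals, 20 with no low-count filter and 5 to 40 with 1 library left out. Nuclear members called higher numbered 1 with DESeq2 and 0 to 2 with 1 library left out. Mitochondrial members called higher numbered 1 with upper-quartile scaling, 1 with library totals and 0 to 2 with 1 library left out. Over all genes, 1283 to 3657 were called higher and 918 to 3374 lower with 1 library left out, and higher calls made up 53.3% of calls with TMM, 40% with upper-quartile scaling and 38.6% with library totals. The cause was not tested. Signs turned as follows, on the log2 scale. With upper-quartile scaling Cox7a2l was -0.087 and mt-Atp6 -0.082, and with library totals -0.133 and -0.120. With voom mt-Atp6 was -0.047. With no filter mt-Co2 was 0.007, and with the copies added, an alternative chosen after seeing the data, 0.028. With 1 library left out Cox7a2l ranged from -0.038 (without VpR2020) to 0.252, Cox7b from -0.170 to 0.083 (without VpR126), Sdhd from -0.151 to 0.011 (without VpR126) and mt-Atp6 from -0.207 (without control replicate 2) to 0.563. Likewise mt-Atp8 ranged from -0.016 to 2.267, mt-Co2 from -0.436 to 0.545, mt-Co3 from -0.476 to 0.025, mt-Nd1 from -0.125 to 0.773 and mt-Nd3 from -0.746 to 0.431, each lowest without control replicate 2 and highest without control replicate 1. None of these values passed the test. No paired analysis was possible because the conditioned libraries carry no replicate numbers. Depth limits Cox4i2, Ndufa4l2, Cox8b, Cox7b2 and Cox8c, whose counts were too low for a test.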
